A study of Danio rerio with 2 samples.

Results

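Chromosome 25 of the zebrafish carried 570 of the 20243 RNA polymerase II (Pol II) peaks called in embryos at 4 h post-fertilization (hpf). Its peaks were taken by position alone, as every peak of the list that lies on this chromosome. The chromosome itself was chosen with its peaks known. The areas described in depth were selected on their measured values. They are a window of strong broad domains from 34 to 36 Mb (41 peaks), a cluster of strong narrow peaks at 18.68 Mb (21 peaks) and the first 2 Mb, where peaks were few (16 peaks). The other 492 peaks are called the rest of the chromosome. The width, score, density and spacing that chose these areas are given as a description, with no test. The summit's place within a peak was not used in the choice.

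The series measured Pol II by chromatin immunoprecipitation and sequencing (ChIP-seq) in whole wild-type Tubingen embryos that received no treatment. It has 2 samples: chromatin pulled down with the Pol II antibody 8WG16, and input chromatin, whose values were not used here. The peak list is 1 call on 2 pooled biological replicates with 1 input, so no difference below has a replicate check. About the sequenced depth the list says nothing, and all intervals below are 95% intervals that cover counting error only. Clustered peaks are not independent, which makes these intervals too narrow.

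Pol II is the enzyme that transcribes protein-coding genes and many small RNAs. It gathers at promoters before it moves through the gene, so a ChIP-seq peak can be a narrow site near a promoter or a broad domain over a transcribed body. Antibody 8WG16 binds the repeated tail of the largest subunit and favours its unphosphorylated form. In zebrafish, the embryo's own genome is silent during the first cleavages and is switched on in a major wave around the stage sampled here. No genome or gene annotation of the files' build, GRCz10, was used, so regions are given by position, no gene is named and no sequence is shown.

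Pol II peaks were dense on chromosome 25 but of ordinary size. Chromosome 25 had 15.5 peaks per Mb (exact Poisson interval 14.2 to 16.8) over its 36.9 Mb up to the last peak. The 23 other assembled chromosomes, with chromosome 4 left out, had 13.2 together, a median of 12.9 and a range from 8.80 on chromosome 9 to 20.7 on chromosome 22. Chromosome 25 therefore ranked 4 of 24 in density. Its median peak was 850 bp wide (770 to 940, interval of the median by order statistics), against 865 bp for the median of the 23, and ranked 18 of 24. The score, which is taken to be −log10 of the best q in a peak, times 10, had a median of 72.5 (66 to 81) against 75, and ranked 17 of 24. Quartiles were close as well. On chromosome 25 the middle 50% of peaks spanned 500 to 1720 bp and scores of 45 to 150, and on the other 23 chromosomes they spanned 490 to 1830 bp and scores of 46 to 177.

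The higher density came with fuller clusters more than with more of them. Neighbours no more than 10 kb apart were stitched into 1 cluster. Chromosome 25 had 179 clusters, of which 81 were lone peaks, or 4.85 clusters per Mb against a median of 4.67 on the other chromosomes (rank 9 of 24). A cluster held 3.18 peaks on average, against a median of 2.81 and a highest value of 3.21 on chromosome 21 (rank 2 of 24). Of the 570 peaks, 85.8% (exact binomial interval 82.7 to 88.6) had a neighbour within 10 kb, against 82.4% of the 16148 peaks on the other 23. Clusters of 5 or more peaks held 55.8% of the peaks, against 51.1% elsewhere. The median space between neighbours was 2290 bp, with quartiles of 630 bp and 26.9 kb, and elsewhere it was 2530 bp.

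Broad peaks were not in excess over the chromosome as a whole. Peaks of 5 kb or more numbered 42, or 7.37% (5.36 to 9.83), against a background of 8.64%. Peaks of 10 kb or more numbered 15, or 2.63% (1.48 to 4.30), against 2.99%. Together the 42 held 44.4% of the covered length of chromosome 25, and on the other chromosomes such peaks held 45.3%. Score and width rose together, with a Spearman's rho of 0.726 over the 570 peaks and 0.683 over the 16148 others. These peaks share 1 pooled call, and width and score follow from the same enrichment.

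**Figure D1:**
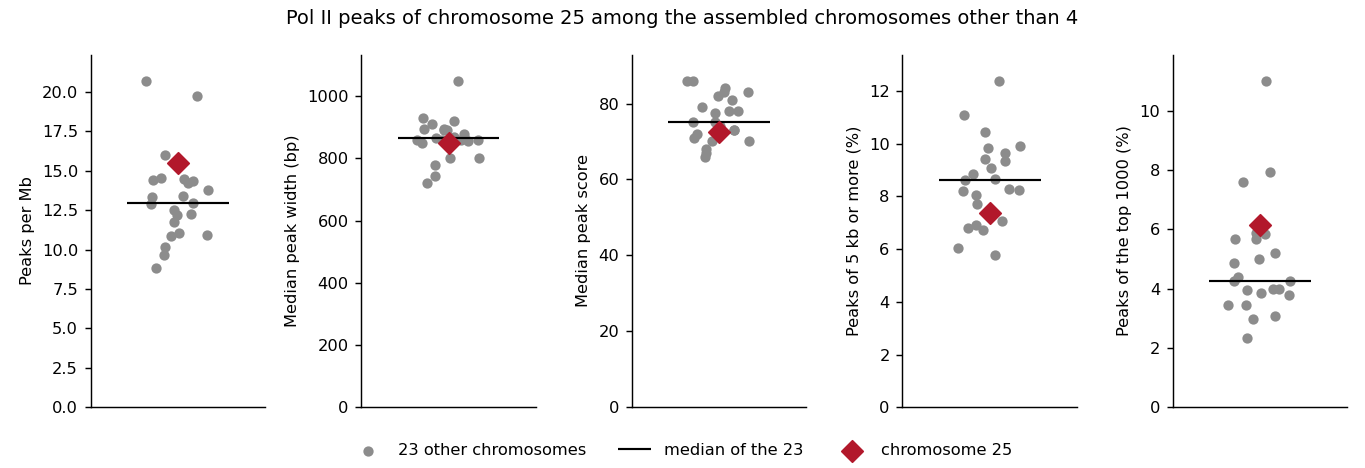
Each panel plots 1 quantity for chromosome 25 (red diamond) and for the 23 other assembled chromosomes without chromosome 4 (grey points, placed sideways at random), and the line is the median of the 23. From left to right the axes are peaks per Mb, median peak width in bp, median score, percent of peaks of 5 kb or more and percent of peaks among the top 1000. Chromosome 25 lies above the median in density (15.5 per Mb) and in top peaks (6.14%), and just below it in width, score and broad peaks.

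The strongest peaks of chromosome 25 were gathered in a small part of it. Among the 1000 highest scoring peaks of the list, all scored 974 or more and 35 lay on chromosome 25. That is 6.14% of its peaks (4.31 to 8.44), against a background of 4.99% and a rank of 4 of 24. Of the 35, 14 lay in the cluster at 18.68 Mb and 10 between 34 and 36 Mb. These areas thus held 68.6% of the top peaks in 10.9% of the chromosome's peaks. In the remaining 508 peaks the share was 2.17% (1.09 to 3.84), with 11 top peaks. These areas were chosen for their scores, and the other chromosomes also have strong areas. On each chromosome, the 2 windows of 2 Mb that held most of its top peaks were therefore taken. They held 68.6% of the top peaks on chromosome 25, against a median of 27.3% on the other 23 (rank 2 of 24). The share of top peaks was then computed without these windows. Chromosome 25 kept 2.28% and the others a median of 3.57%, which put chromosome 25 at rank 22 of 24. Without the 18.68 Mb cluster alone its share was 3.83%. Apart from a peak that scored 2428, the top peaks of that cluster scored 979 to 1225 and ranked 761 to 994 in the list. They thus lay just above the limit of 974. No other limit was tried, so how far the share of 6.14% and its rank depend on it was not tested.

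**Figure D2:**
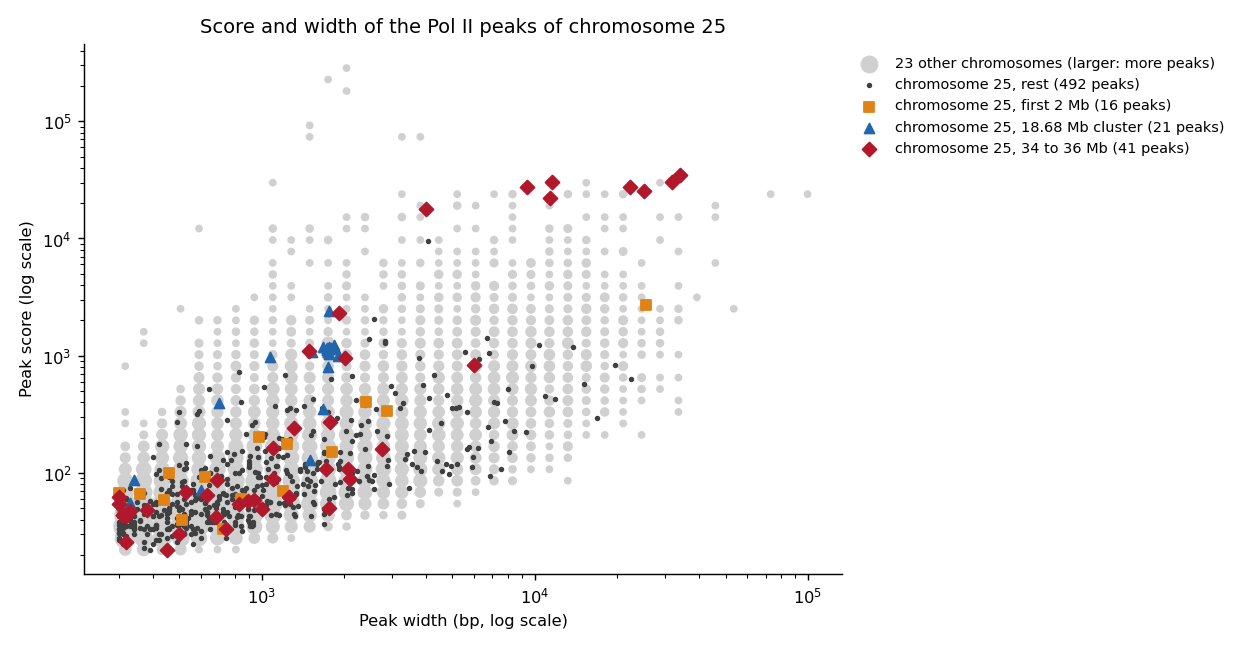
The plot sets peak score against peak width, both on log scales. Grey circles count the peaks of the 23 other chromosomes in a grid, and coloured marks are single peaks of chromosome 25. The 8 strongest peaks of the 34 to 36 Mb window (red) lie at scores of 17890 to 34958, the cluster at 18.68 Mb (blue) forms a knot around its strong peaks (medians of 1760 bp and 1142), and the rest lie within the grey field.

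Between 34 and 36 Mb, 8 Pol II domains, 7 of them 5 kb or more wide, reached scores that no other peak of the chromosome came near. The 8 scored between 17890 and 34958, and the next peak of the chromosome scored 9467. They were 3.99 to 33.96 kb wide and covered 149 kb in all. That is 79.4% of the 188 kb covered in the window and 14.2% of the length covered on the whole chromosome. In the whole list 82 peaks scored above 10000, and chromosome 25 held 8 of them, against 19 on chromosome 7, 13 on chromosome 2 and a median of 2 on the 23 other chromosomes.

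The 8 domains formed 3 clusters. In the first cluster (34535501 to 34569380), a single peak 31.75 kb wide scored 30586 (34536621 to 34568370). It was flanked at 590 and 380 bp by small peaks that scored 69 and 65. Its summit lay in the middle, 16490 and 16705 bp from the summits of these flanks. The domain filled nearly all of the cluster, of which 97.1% was covered.

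The middle cluster began 17.9 kb further on (34587281 to 34655580) and was 94.1% covered. Its 4 domains stood side by side. The one of 22.33 kb scored 27377 (34589581 to 34611910), that of 11.33 kb scored 22146 (34612261 to 34623590) and that of 25.18 kb scored 25533 (34624911 to 34650090). The last, 3.99 kb wide, scored 17890 (34650321 to 34654310). The spaces between them were 350, 1320 and 230 bp, so the domains were parted by little more than the smallest space the list holds on this chromosome, 210 bp, or by just over 1 kb. The outer flanks held peaks that scored 22 and 49.

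The last cluster (35742281 to 35827820) lay 1.09 Mb beyond the middle one and held 12 peaks. Its widest domain, 33.96 kb, had the highest score of chromosome 25, 34958, and ranked 9 in the whole list (35771501 to 35805460). On one side of it stood a domain of 9.39 kb that scored 27692 (35757681 to 35767070), on the other a domain of 11.54 kb that scored 30290 (35809771 to 35821310). This cluster was looser than the middle one, with 75.5% of its length covered and spaces of 4430 bp before and 580 bp after the widest domain. A peak of 2.08 kb and a score of 109 lay in the gap between the widest domain and the one that followed. At the outer ends, peaks of 1.49, 1.92 and 2.02 kb scored 1091, 2306 and 955, so this cluster, unlike the others, had flanking peaks of some strength.

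**Figure D3:**
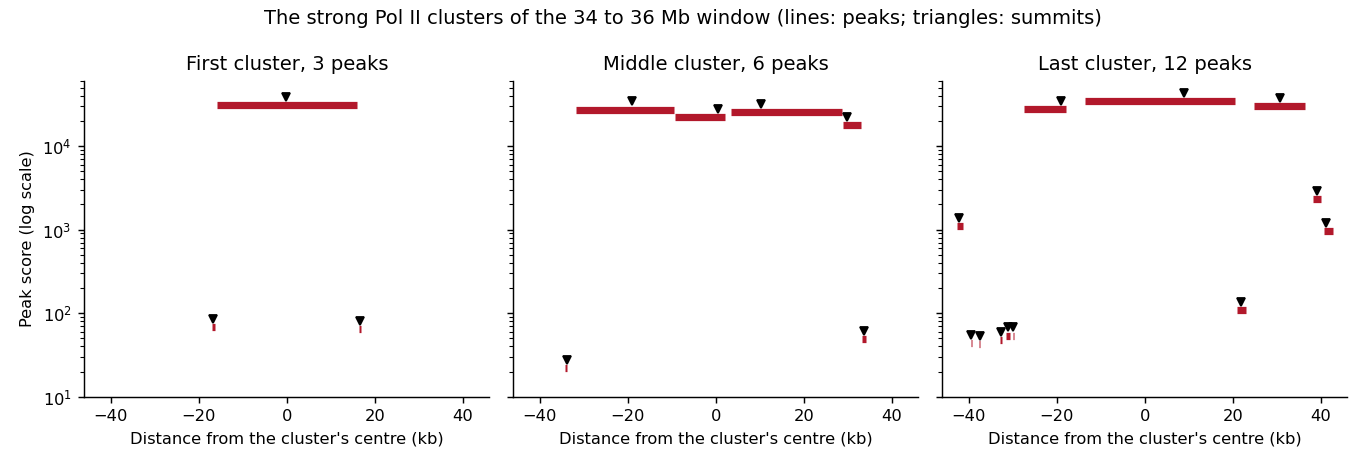
Each panel shows 1 of the strong clusters, with distance from the cluster's centre in kb across and peak score on a log scale up. A horizontal line spans a peak and a triangle marks its summit. Across the panels the 8 domains stand at 17890 to 34958, while most small peaks beside them lie near or below 100.

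Outside the 8 domains, the window's peaks were close to the rest of the chromosome in median score and width. These other 33 peaks scored 62 and measured 890 bp at the median, against 69.5 and 810 bp for the rest. Of the 33, 25 scored 110 or less, and the highest score was 2306. Over all 41 peaks of the window, 73.2% had a neighbour within 10 kb, against 87.2% of the rest. Only 1 of the 33 reached 5 kb, a peak of 5.99 kb that scored 839 (35383981 to 35389970). Before that peak lay 728 kb without any peak (34655581 to 35383980), the space that divides the window in its middle and ranked 9 among the spaces of the chromosome. In the first 0.5 Mb of the window, before the strong clusters, peaks were lone or nearly so, with scores of 88, 272, 243, 89 and 59.

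Few windows elsewhere matched it in covered length, in peaks of 10 kb or more or in very high scores. Of the 600 other windows of 2 Mb, 3 had as much covered length as the 188 kb between 34 and 36 Mb, and their median was 43.4 kb. In its number of peaks, 41, it was matched by 95 other windows, and in its 8 peaks of 5 kb or more by 11. Peaks of 10 kb or more numbered 6, a count that 1 other window reached. Peaks scored above 10000 numbered 8, which 2 other windows reached. One of these, on chromosome 2 from 14 to 16 Mb, held 11 such peaks, none of them as wide as 5 kb. The other, on chromosome 7 from 6 to 8 Mb, was more alike, with 8 such peaks, 147.7 kb covered and a highest score of 29350. On chromosome 7, a stretch from 5781501 to 6335090 held 11 strong domains of 3.37 to 26.89 kb that scored 14449 to 29350 and covered 120 kb. The windows had fixed borders, and the one at 6 Mb split this stretch. The window from 4 to 6 Mb on chromosome 7 held 5 peaks scored above 10000 and 2 of 10 kb or more. The window on chromosome 25 was chosen for its domains, so the counts of windows that reached it depend on these borders.

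Most peaks of this width scored far lower. On the other 23 chromosomes, 483 peaks of 10 kb or more had a median score of 1080, with quartiles of 573 and 2164, and 11 of them scored at least 22146, the lowest score among the 6 such peaks in the window. On chromosome 25 itself, the 9 peaks of 10 kb or more outside the window scored 292 to 2720, with a median of 632.

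The summit, the point of highest signal within a peak, also sat differently. In the 9 broad peaks outside the window it lay near an end, at a median of 10.6% of the width from the nearer end, and in 6 of the 9 within 15%. On the other chromosomes the median was 9.65%, and 62.7% of the 483 lay within 15%. In the 6 broad domains of the window the median was 38.6%, and 1 of the 6 lay within 15%. The widest and the next widest, for example, had their summits at 65.8% and 49.2% of the width. Of the 27 peaks elsewhere that were both 10 kb or more wide and scored above 10000, 14.8% had a summit within 15% of an end, with a median of 28.5%. Strong broad peaks on other chromosomes therefore had inner summits as well. The sets were not compared by a test, because peaks of 1 cluster are not replicates.

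At 18.68 Mb, 21 Pol II peaks formed the fullest cluster of the chromosome (18683261 to 18779650). It spanned 96.4 kb, of which 32.0% was covered, and none of its peaks was wider than 1.90 kb. The next fullest clusters on chromosome 25 held 16 peaks each. The cluster's strength lay in its typical peak more than in its highest, since the median score was 1071 and the highest 2428. Among the 273 other clusters of 10 or more peaks, whose median was 60, 4 had a median score as high, while 24 had a highest score as high. As many peaks were held by 22 of the 273, and as many of the top 1000 (14) by 3.

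Most peaks of this cluster were similar in width and score. Of the 21, 14 were 1500 to 2000 bp wide and scored 800 or more, the limits by which they are called strong here. They were 1530 to 1900 bp wide and scored 808 to 2428. Their median width was 1760 bp and their median score 1142. In order along the chromosome they scored 1131, 2428, 1071, 1189, 1073, 808, 1117, 1225, 1152, 1159, 1188, 1159, 1029 and 985. Apart from the 2428 of the peak at 18703141 to 18704900 and the 808 of the peak at 18724731 to 18726480, all lay between 985 and 1225. The 7 other peaks were weaker or narrower: the one at the cluster's start scored 979 with a width of 1070 bp, and those that followed scored 348, 55, 396, 87, 128 and 71. The 14 strong peaks are not the same set as the 14 of the top 1000. The peak that scored 979 belonged to the top 1000, and the strong peak that scored 808 did not.

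A step of one size recurred among steps of many sizes. From one summit to the next of the 21 peaks, the 20 steps ran from 800 to 9470 bp with a median of 4293 bp, and 10 of them were between 4100 and 4400 bp. Of the 20 spaces between neighbouring peaks, 11 were between 2400 and 2700 bp. Among the 14 strong peaks alone, 8 of the 13 steps were between 4100 and 4400 bp. The exceptions were a step of 8720 bp across a weak peak that scored 87, one of 5830 bp, and steps of 8950, 11650 and 9470 bp at the far end, where the row thinned out. The 8 recurring steps thus lay in the earlier part of the row, from 18698851 to 18749430, which held 11 of the 14. The share of steps within 100 bp of the cluster's median step was 8 of 20, against a median of 11.1% in the 273 other clusters, and 9 of these had as high a share.

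Each strong peak was also lopsided in the same direction. The summits of the 14 lay at 77.6% to 85.5% of the peak's width, with a median of 83.7%. They were a median of 1473 bp from the peak's start and 285 bp from its end. For the 1254 peaks of 1500 to 2000 bp outside this cluster and the like clusters described next, the median was 50.3% and the quartiles were 26.9% and 71.6%. Of the weaker peaks in the cluster, the one of 1680 bp that scored 348 had its summit at 82.4%, while the one of 1510 bp that scored 128 had it at 16.9%.

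Clusters that held peaks of the same width and score, with the summit at the opposite end, were found on chromosomes 15 and 11. The other clusters of 10 or more peaks that held at least 8 of the top 1000 at a median score below 2000 numbered 4, with 3 on chromosome 15 and 1 on chromosome 11. Their strong peaks, of 1500 to 2000 bp and a score of at least 800, numbered 29, 13 and 16 on chromosome 15 and 9 on chromosome 11. Median widths were 1790, 1770, 1750 and 1720 bp, beside 1760 bp on chromosome 25, and median scores 1181, 1144, 1080 and 1039, beside 1142. The limits on width and score keep these medians close. Over all steps, with no limit on their size, the median was 4230 bp in each of the 3 clusters on chromosome 15 and 4270 bp on chromosome 11, beside 4293 bp. The summits, however, lay at 14.9% to 22.4% of the width over all 67 strong peaks of these clusters, with medians of 17.1%, 17.3%, 17.1% and 17.4%. In bp, their median distance from the peak's start was 300 to 310 and from its end 1415 to 1475, the reverse of the 1473 and 285 on chromosome 25. No summit share of the 14 peaks on chromosome 25 overlapped with any of the 67.

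The row on chromosome 25 had the smallest share of steps of the recurring size among these 5 clusters. Steps of 4100 to 4400 bp were 10 of its 20 steps, against 27 of 30, 12 of 14 and 16 of 19 on chromosome 15 and 7 of 11 on chromosome 11. In the alignment, a read with several equally good positions was placed at 1 of them at random, so near-identical copies would share signal. The part of repeated sequence in these rows was not tested.

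**Figure D4:**
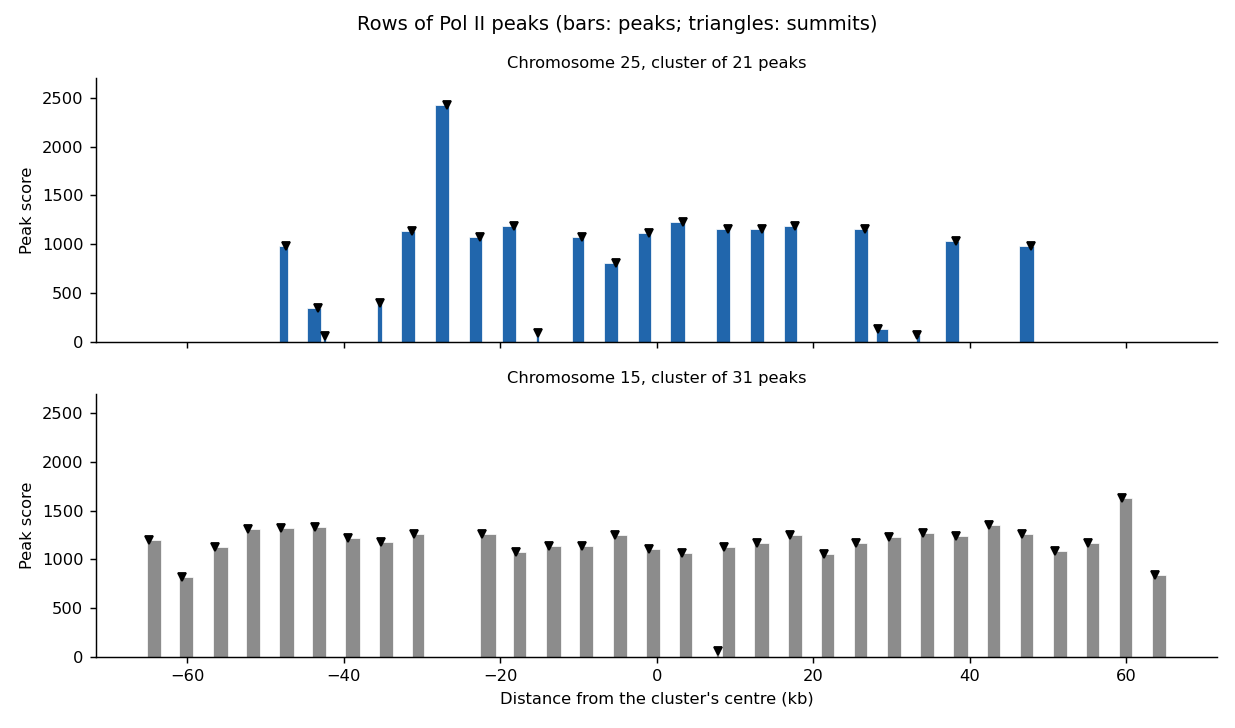
The upper panel shows the cluster at 18.68 Mb on chromosome 25 and the lower panel the largest of the like clusters on chromosome 15, with distance from the cluster's centre in kb across and peak score up. Bars span peaks and triangles mark summits. In both, peaks of 1500 to 2000 bp recur, with 10 of 20 and 27 of 30 summit steps between 4100 and 4400 bp and with the summit at the right end of the peak on chromosome 25 (median 83.7% of the width) and at the left end on chromosome 15 (17.1%).

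At its start, chromosome 25 was poor in peaks but not in clusters. The first 2 Mb held 16 peaks, or 8.0 per Mb (exact Poisson interval 4.57 to 12.99), against 15.9 per Mb on the remainder, a ratio of 0.504. That was the lowest ratio among the 24 chromosomes, next to 0.521 on chromosome 20, and 14 of the 23 others had a ratio above 1. In peaks per Mb itself the first 2 Mb ranked 22 of 24. When stitched clusters were counted in place of peaks the ratio was 1.03, with 10 clusters, or 5.0 per Mb, and chromosome 25 ranked 16 of 24. The clusters were simply small, with 1.6 peaks each against a median of 2.92 in the first 2 Mb of the other chromosomes, and 7 of the 10 were lone peaks. Nor was the low count particular to the start. In bins of 1 Mb, the first 2 held 12 and 4 peaks, against a median of 12 over the chromosome's bins. Some stretches further along held fewer, with 2 and 8 peaks from 4 to 6 Mb and 6 and 2 from 8 to 10 Mb.

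A single broad domain dominated this stretch. It was 25.45 kb wide, scored 2720 and ranked 3 in width and 10 in score on chromosome 25 (166371 to 191820). Peaks of 840, 720 and 1200 bp that scored 60, 33 and 70 followed, each within 330 bp of the one before. The domain made up 62.8% of the 40.55 kb covered in the first 2 Mb. Covered length was therefore closer to the rest than the count of peaks was, with 2.03% of the stretch covered against 2.90% of the remainder. Unlike most broad peaks outside the 34 to 36 Mb window, its summit lay in the middle, at 52.5% of the width.

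The other 12 peaks of the first 2 Mb were no wider than 2890 bp, and 7 of them were lone peaks. A pair at 255771 to 256210 and 258661 to 260470 scored 59 and 150, and a group of 3 from 446831 to 453920 scored 177, 40 and 99. The lone peaks, at 110941, 222261, 913551, 1224061, 1254911, 1548441 and 1977641, scored 67, 66, 406, 337, 93, 203 and 50 and were 300 to 2890 bp wide. The 460 kb before the peak at 913551 held no peak, and neither did the 428 kb before the peak at 1977641. At the median the 16 peaks scored 81.5 and measured 780 bp, against 90 and 890 bp for the 850 peaks in the first 2 Mb of the 23 other chromosomes. The peaks that were there were thus of common size and strength.

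**Figure D5:**
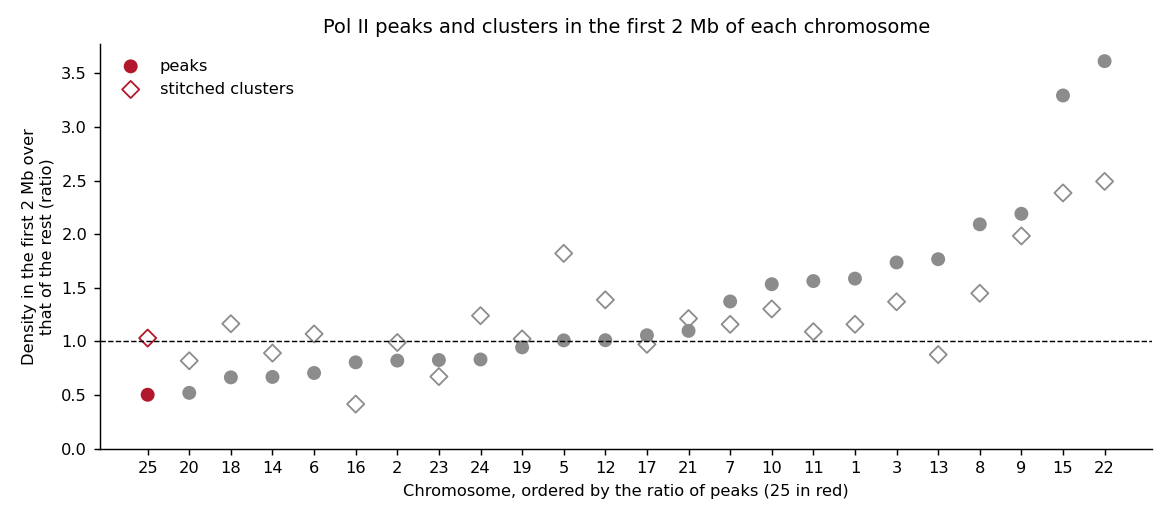
For each of the 24 chromosomes, the density in the first 2 Mb divided by that of the remainder is plotted for peaks (filled circles) and for stitched clusters (open diamonds), with chromosomes ordered by the ratio of peaks and 25 in red. The dashed line marks a ratio of 1. Chromosome 25 has the lowest ratio of peaks, 0.504, while its ratio of clusters is 1.03.

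The sparse start ran on past 2 Mb and ended abruptly. Between 2 and 3 Mb there was 1 peak, of 7.12 kb with a score of 406 (2190761 to 2197880), so 17 peaks lay before 3.1 Mb. After 908 kb without a peak (2197881 to 3105860) came the densest Mb of the chromosome. From 3 to 4 Mb it held 50 peaks, which covered 110 kb. Among these was a domain of 15.18 kb that scored 570 (3108601 to 3123780), and next to it a cluster of 16 peaks (3168071 to 3236900). That cluster covered 46.3 kb, held a peak of 5.55 kb that scored 1071 (3179831 to 3185380) and a domain of 16.91 kb that scored 292 (3185661 to 3202570). With the first 5 Mb in place of 2 Mb, the ratio of densities was 0.878.

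Both crowded and nearly empty stretches occurred along chromosome 25. Of the 36 full bins of 1 Mb on the whole chromosome, 6 held 30 or more peaks (16.7%, against 6.84% of 1214 bins on the other 23 chromosomes) and 7 held 2 or fewer (19.4%, against 12.1%). Among the 6 was the bin from 18 to 19 Mb, where 21 of the 30 peaks belonged to the cluster at 18.68 Mb. Both shares rest on few bins, and no interval was computed for them. The median bin held 12 peaks, against 11. Spaces over 1 Mb numbered 3, at 21059071 to 22275850 (1.22 Mb), 11288301 to 12397440 (1.11 Mb) and 30019101 to 31048890 (1.03 Mb). Right after the space of 1.11 Mb, at 12397441, stood a domain of 10.33 kb whose summit lay 4.50% from its start and which scored 1225.

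The fuller clusters of the rest were made mostly of weak peaks, unlike the row at 18.68 Mb. Those of 16 peaks lay at 3168071 to 3236900, 13478291 to 13518410, 14411471 to 14472400, 15901301 to 15943980 and 28980611 to 29021000. Their median scores were 70.5, 42, 74.5, 49 and 59. Such values were common, since the median was 60 in the 273 clusters of 10 or more peaks on the other chromosomes. The cluster at 14411471 was 85.1% covered and ended in a domain of 22.55 kb with a score of 632, the broadest of the rest (14449851 to 14472400). At 15901301 the highest of the 16 scores was 136, and 41.3% of the length was covered. The cluster at 28980611 ended in a peak of 2.83 kb that scored 1277 (29018171 to 29021000), so it held 1 of the top 1000.

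By covered length, the last and middle strong clusters came first on chromosome 25, with 64.5 and 64.3 kb. The cluster at 14411471 followed with 51.9 kb, then that at 3168071 with 46.3 kb and one of 4 peaks at 29752311 to 29791290 with 36.7 kb. The last of these was 94.0% covered and held a domain of 19.71 kb that scored 841, beside a peak of 6.68 kb that scored 1411. It was thus as closely filled as the middle strong cluster, at a highest score that was lower by more than an order of magnitude.

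One strong peak stood almost alone. At 5209541 to 5213610, a peak of 4.07 kb scored 9467, which ranked 9 on chromosome 25 and 89 in the list. No peak lay in the 425 kb before it, and the next one, 8.07 kb beyond, was 490 bp wide and scored 52. Its summit lay at 87.8% of the width. Other high scores in the rest were 2045 for a peak of 2.59 kb (6261401 to 6263990), 1395 for one of 2.48 kb in a cluster of 12 (3520521 to 3523000) and 1328 for one of 2.83 kb (29244981 to 29247810).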

How the data were processed

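Pol II ChIP-seq peaks of untreated 4 hpf embryos were analysed as deposited. According to the methods and the submitters' processing notes, the authors aligned 50-bp single-end reads to GRCz10 with Novoalign 2.8, placing multiply mapped reads at random, merged technical replicates with SAMtools and called peaks with a multi-replicate wrapper around MACS2, at a cutoff of 2, on 2 biological replicates and 1 input. The authors deposited 1 whole-number score per peak, lowest 20, read here as 10 times −log10 q, although the list does not say so. Peak positions, widths and summit offsets in bp came from the same list, and its fold, p and q fields hold 0 and were not used.

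Chromosome 25 was compared with the 23 assembled chromosomes other than 4, and the last peak's end stood for a chromosome's length. Positions count from 1. Peaks were stitched at spaces of 10 kb or less. Intervals were exact Poisson, exact binomial (Clopper-Pearson) or order-statistic ones. No test was run, since areas were selected on their values and peaks are not replicates. Named regions were the 10 highest and 5 broadest peaks, all peaks of 10 kb or more from 34 to 36 Mb, the 5 fullest and 5 longest clusters, the peaks of the 18.68 Mb cluster and first 2 Mb, and the 3 longest spaces. Others were chosen after their values were seen. The members and these rules were chosen with earlier results of these data known. Stitching, merging and intervals were tested on simulated data (Python 3.11.15, pandas 2.3.3, NumPy 2.4.6, SciPy 1.17.1). Gene, start site and sequence analyses planned for a GRCz10 annotation were not run.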

Additional observations from a re-analysis of the deposited data

How the results depend on the processing

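Results were recomputed with the top 25% of peaks by score (177 or more), with peaks within 500 bp merged, and without 34 to 36 Mb. The alternatives for the share of top peaks were chosen after the data were seen. Leaving out the window moved no value beyond its interval, but the share of top peaks went to 4.73% (rank 11 of 24 in place of 4) and that of peaks of 5 kb or more to 6.43% (rank 22 in place of 18). With the top 25%, which starts from fewer and stronger peaks, chromosome 25 had 3.34 peaks per Mb (rank 11 of 24 in place of 4), a median width of 2210 bp, a median score of 406, 26.8% of peaks of 5 kb or more and 48.8% with a neighbour within 10 kb. With merged peaks these were 12.1 per Mb (rank 4), 1060 bp (rank 6 in place of 18), 81.5, 11.2% and 79.1%. With 1 peak per stitched cluster, 11.7% were of 5 kb or more. At spaces of 5 and 20 kb, 79.1% and 89.5% had a neighbour. The share of top peaks was 3.83% without the 18.68 Mb cluster, 2.17% without both strong areas and 2.28% when every chromosome lost its 2 strongest windows. The 18.68 Mb cluster held 13 peaks with stitching at 5 kb, since wider spaces then divide it, and 17 to 21 otherwise. The first 2 Mb stood at 0.878 of the remaining density when 5 Mb were taken and at 1.03 when clusters were counted, and at 0.347 to 0.772 under the other 4 alternatives. Covered length and broad peaks from 34 to 36 Mb stayed within 1.5 times under all alternatives (131 to 181 kb, 6 to 8 peaks). No paired analysis was possible because 1 list was called on both replicates together, and for the same reason neither could be left out. Depth is unknown.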

Other observations

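Some peaks outside the rows also had the width of the strong peaks of the 18.68 Mb row, a high score and a summit near an end. Outside that row and the 4 like clusters on chromosomes 15 and 11, and with chromosome 4 left out, 42 of the 1254 peaks of 1500 to 2000 bp scored 800 or more. Of the 42, 8 had the summit at 13% to 22% of the width and 4 at 78% to 87%. Summits in these ranges were not counted over all 1254 peaks, so whether these counts are an excess cannot be told. The score had no upper limit, and the 12 peaks scored 813 to 4503. None of these 12 lay on chromosome 25. A peak on chromosome 15 (9953251 to 9955220) scored 1216 with its summit at 15.99%, and lay beyond the end of the largest like cluster. On chromosome 8, 3 peaks between 30838581 and 30893270 scored 836, 1066 and 1088 with summits at 17.5%, 20.8% and 17.3%. On chromosome 11 a peak at 30916451 to 30918370 scored 943 with its summit at 85.2%, near the like cluster of that chromosome, whose summits lay at 17.1% to 22.4%. Summits near either end thus occurred close to each other there. These peaks were chosen after their values were seen, and what the peaks share in sequence was not tested.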
